A study of Mus musculus with 10 samples.

Results

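The 10 genes described here, Aqp4, Aldh1l1, S100b, Mlc1, Slc4a4, Ntsr2, Cldn10, Htra1, Acsbg1 and Clu, are genes of astrocytes that were grouped as genes of astrocyte maturation. They were chosen by name, out of 12393 genes that have a probe set of their own on the array, and every probe set annotated to them was taken, 20 in all. Brain RNA of C57BL/6 mice, an inbred laboratory strain, was hybridised to 10 Affymetrix MOE430A arrays, on which a gene is read by 1 or more sets of short oligonucleotide probes. The groups were brains of 1 week labelled female (3 arrays) and male (3 arrays) and brains of 8 weeks labelled female (2 arrays) and male (2 arrays), with no treatment or genetic change named in the labels. The labels do not say which parts of the brain were taken, nor whether the numbered brains were of different animals, and a p-value here measures only the spread between these samples, which may be technical. In whole tissue, more cells of a type and more RNA per cell cannot be told apart.

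Astrocytes arise from radial glia and local progenitors around birth, multiply in the first weeks after it, and then extend fine processes to synapses and endfeet to blood vessels. As they mature they take on the work of the adult cell, which includes the uptake of transmitters, the control of water, potassium and bicarbonate, and the supply of lipids and secreted proteins. Several of the 10 genes are widely used markers: Aldh1l1 marks astrocytes as a class, Aqp4 their endfeet, and S100b is a late marker that some oligodendrocytes also carry.

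Deposited intensities were not on a common scale, with trimmed means from 139 to 319, and were quantile-normalized here. Levels below are normalized intensities, given as mean ± SD over 6 arrays at 1 week and 4 at 8 weeks, and changes are log2 at 8 weeks minus 1 week ± SE. A gene was called at an adjusted p under 0.05 in limma, adjusted over 13576 probe sets. Levels of different probe sets were not compared. Xist and Eif2s3y, transcripts that mark female and male cells, followed the sex labels on all 4 arrays of 8 weeks. At 1 week they went against the label on 4 arrays, replicates 1 and 2 labelled female and 2 and 3 labelled male, and replicate 3 labelled female carried both transcripts, so at 1 week the labels do not give the sex of each brain. Brain identity was borne by neuronal markers, whose summed intensity ran from 14451 to 15865 at 1 week and from 13893 to 14656 at 8 weeks. Single markers were not steady: of 7 tested, 3 rose with age (Syt1, Snap25 and Gad1) and 2 fell (Stmn2 and Tubb3), beside 21.9% and 24.0% of all genes.

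Most of the 10 genes were higher in the brain of 8 weeks, but the pan-astrocyte marker Aldh1l1 was lower and the endfoot water channel Aqp4 showed no difference that passed the test. Taken by the brightest probe set, 7 of the 10 genes rose (S100b, Ntsr2, Clu, Acsbg1, Htra1, Cldn10 and Mlc1), where 21.9% of the 8148 genes tested were called higher. Of the 10, 1 fell (Aldh1l1), where 24.0% of all genes were called lower, and Aqp4 and Slc4a4 were not called, so that 8 of the 10 were called in either direction beside 45.9% of all genes. With age alone in the model on all 10 arrays, which leaves out the sex labels, 6 of the 7 rises and the fall of Aldh1l1 were kept. Mlc1 lost its call there. S100b, Ntsr2, Clu and Acsbg1 rose at least 2-fold, as did 3.07% of all genes. The median change of the 10 was 0.62, beside -0.020 for all genes. In 7 of the 10 the arrays of the ages did not overlap, against 35.9% of all genes: 6 were higher and Aldh1l1 was lower at 8 weeks on every array. Of the 20 probe sets, 18 passed the filter on low values, and 14 of these were called higher and 1 lower, beside 22.0% and 24.0% of all probe sets. The ages did not overlap in 12 of the 18, of which 11 were higher at 8 weeks, beside 35.4% and 17.1% of all probe sets. Normalization sets each direction against the bulk of probe sets. Left on the deposited scale, probe sets had a median change of 0.47, with 8673 called higher and 629 lower, and 8 of the genes were called higher and 0 lower. There Slc4a4 gained a call (0.58 ± 0.15, limma adjusted p = 0.0023) and Aldh1l1 lost its own (-0.26 ± 0.17, limma adjusted p = 0.169). With the arrays scaled to their spike-in controls, 7 genes were higher and 1 lower, and of all probe sets 4304 were higher and 1207 lower.

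**Figure D1:**
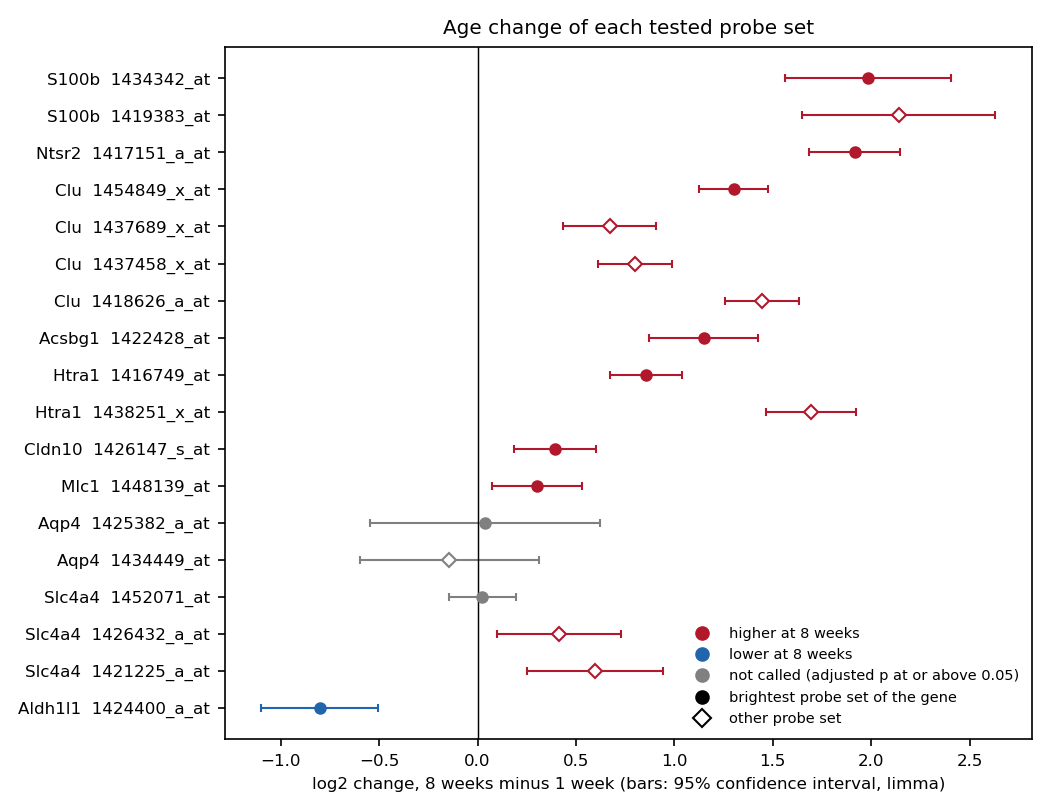
Change with age of the 18 tested probe sets, as log2 at 8 weeks minus 1 week on the horizontal axis, with limma's 95% confidence interval as bars, filled circles for the brightest probe set of each gene and open diamonds for the others. The probe sets of S100b, Ntsr2, Clu, Acsbg1 and Htra1 lie to the right of 0, the 3 of Slc4a4 differ among themselves, and Aldh1l1 lies to the left at -0.80.

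The promoters of the genes that carry the contrast are shown because S100b, Ntsr2 and Acsbg1 rose together while Aldh1l1 fell. They are the RefSeq windows of build GRCm38.p6, 250 bases before to 50 after the start of transcription, written in the direction of the gene. Capitals mark matches on either strand to the NFI core motif TTGGCA, the STAT site TTCNNNGAA, the SOX site ACAAAG or the nuclear receptor motif AGGTCA, which are short motifs of factors with roles in glial development.
S100b, chr10:76253586-76253885, plus strand: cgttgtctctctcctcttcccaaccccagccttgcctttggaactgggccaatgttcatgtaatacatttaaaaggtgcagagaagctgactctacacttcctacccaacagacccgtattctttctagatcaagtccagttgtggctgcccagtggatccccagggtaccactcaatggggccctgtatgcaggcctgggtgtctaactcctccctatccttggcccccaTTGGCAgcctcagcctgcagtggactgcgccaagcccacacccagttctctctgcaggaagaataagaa
Ntsr2, chr12:16653220-16653519, plus strand: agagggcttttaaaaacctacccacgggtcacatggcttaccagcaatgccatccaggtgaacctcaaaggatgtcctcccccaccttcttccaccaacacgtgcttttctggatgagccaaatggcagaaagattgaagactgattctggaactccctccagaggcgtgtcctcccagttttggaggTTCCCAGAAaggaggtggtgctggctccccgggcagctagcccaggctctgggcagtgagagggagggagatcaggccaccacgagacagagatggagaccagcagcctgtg
Acsbg1, chr9:54661836-54662135, minus strand: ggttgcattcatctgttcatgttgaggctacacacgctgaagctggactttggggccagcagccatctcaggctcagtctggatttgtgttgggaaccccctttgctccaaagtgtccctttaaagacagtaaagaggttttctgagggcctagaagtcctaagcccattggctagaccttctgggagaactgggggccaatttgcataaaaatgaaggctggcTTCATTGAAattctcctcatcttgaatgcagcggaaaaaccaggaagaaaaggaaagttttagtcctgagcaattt
Aldh1l1, chr6:90550543-90550842, plus strand: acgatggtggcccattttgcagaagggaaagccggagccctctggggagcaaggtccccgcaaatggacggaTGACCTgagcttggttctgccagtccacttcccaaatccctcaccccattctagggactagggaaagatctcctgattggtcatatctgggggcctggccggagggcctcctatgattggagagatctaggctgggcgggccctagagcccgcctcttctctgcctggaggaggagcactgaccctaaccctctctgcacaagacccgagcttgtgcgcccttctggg
The S100b window holds an NFI core motif, which 14.1% of the 32851 windows in the table hold. The windows of Ntsr2 and Acsbg1 each hold a STAT site, which 8.3% of all windows hold, and that of Aldh1l1 a nuclear receptor motif, which 16.3% hold. Windows were listed for 8 of the 10 genes, at 10 starts, and not for Clu, which rose, or Aqp4. Of these 10 windows the NFI core motif was in 1, a STAT site in 2 and a nuclear receptor motif in 2. A SOX site was in 1 of the 10, beside 18.7% of all windows. The other nuclear receptor match was in a window of Slc4a4, which was not called. The windows of Htra1 and Mlc1, which rose, held none of the capitalised motifs, nor did a window of Cldn10 or the other window of Slc4a4. The full palindromic NFI site, whose arms TTGGC and GCCAA stand 5 bases apart and which can overlap the core motif, was in 0 of the 10 and in 0.0365% of all windows. The E-box CANNTG, not capitalised, was in 8 of the 10 and in 72.3% of all windows. A match describes these letters only and is not evidence of a bound site.

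S100b encodes a small calcium-binding protein that mature astrocytes hold and release. Its brighter probe set, 1434342_at, read 153 at the lowest, 205 at the median and 345 at the highest over the arrays of 1 week, and 856 and 1003 (labelled female) and 885 and 1111 (labelled male) at 8 weeks. The lowest array of 8 weeks thus stood well above the highest of 1 week, and the level went from 234 ± 77.7 to 964 ± 117 (1.98 ± 0.19, limma adjusted p = 2.29e-05), about 3.95-fold on the scale of log2 with a pseudocount of 24. The other probe set, 1419383_at, read 84.3, 114 and 222 as the lowest, median and highest of 1 week and 547, 602, 664 and 854 at 8 weeks. It gave much the same change (2.14 ± 0.22, limma adjusted p = 3.62e-05), and the confidence intervals of the 2 probe sets overlapped (1.56 to 2.40 and 1.65 to 2.63).

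Ntsr2 encodes the low-affinity neurotensin receptor, which in the brain is found mainly on astrocytes. Its probe set read 304, 355 and 418 as the lowest, median and highest at 1 week. At 8 weeks it read 1340.1 and 1521 in arrays labelled female and 1542 and 1339 in those labelled male. The arrays of each age lay close together and far from the other age, with 364 ± 46.0 at 1 week and 1436 ± 111 at 8 weeks (1.92 ± 0.10, limma adjusted p = 8.19e-07).

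Clu encodes clusterin, also called apolipoprotein J, a secreted chaperone that carries lipids. Its brightest probe set, 1454849_x_at, read 1439.6, 1583 and 1745 as the lowest, median and highest at 1 week and 3906, 3982, 4284 and 3651 at 8 weeks. The ages were far apart on every array, with 1591 ± 101 against 3956 ± 260.4 (1.30 ± 0.08, limma adjusted p = 1.66e-06). All 4 probe sets of Clu rose but not by the same amount. The probe set 1418626_a_at changed by 1.44 ± 0.08, while 1437458_x_at changed by 0.80 ± 0.08 and 1437689_x_at by 0.67 ± 0.11. The intervals of the first pair (1.13 to 1.48 and 1.26 to 1.63) did not meet those of the second pair (0.61 to 0.99 and 0.43 to 0.91). The suffix x_at is the array maker's mark for probes that may also bind other transcripts.

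Htra1 encodes a secreted serine protease that cleaves matrix and growth factor proteins. The probe set 1416749_at read 573, 603 and 691 as the lowest, median and highest at 1 week and 998, 1253, 1129 and 1145 at 8 weeks. The ages did not overlap, and the level went from 613 ± 42.0 to 1132 ± 105 (0.86 ± 0.08, limma adjusted p = 2.40e-05). The dimmer probe set 1438251_x_at went from 186 ± 29.4 to 654 ± 88.7 (1.69 ± 0.10, limma adjusted p = 1.66e-06). Its interval of 1.47 to 1.92 lay above that of the brighter probe set, 0.67 to 1.04, so the rise was seen by both and its size was not settled.

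Acsbg1 encodes an acyl-CoA synthetase that activates long-chain fatty acids. It read 117, 139.6 and 206 as the lowest, median and highest at 1 week and 392, 351, 320.0 and 367 at 8 weeks. The level rose from 150.5 ± 35.2 to 358 ± 30.2 with no overlap between the ages (1.15 ± 0.12, limma adjusted p = 4.85e-05). At 1 week replicates 2 and 3 labelled female were the highest arrays.

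Aldh1l1 encodes formyltetrahydrofolate dehydrogenase, an enzyme of folate metabolism, and was the 1 gene of the 10 that fell. Its brighter probe set, 1424400_a_at, read 598, 695 and 979 as the lowest, median and highest at 1 week and 363, 487, 414 and 392 at 8 weeks. Every array of 8 weeks was below every array of 1 week, and the level went from 745 ± 139.7 to 414 ± 53.3 (-0.80 ± 0.13, limma adjusted p = 0.000785, 0.000112 to 0.169 over its alternatives). With each array left out in turn the change ran from -0.90 to -0.70 and the call was kept. The second probe set, 1424401_at, was too dim for the test, with a mean of 57.2 where the dimmest one tested had 73.9. It read 10.7 to 84.9 at 1 week and 54.0 to 82.4 at 8 weeks, which overlapped, so the fall rests on 1 probe set.

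Cldn10 encodes a claudin that forms ion-selective pores in tight junctions. Its only probe set, 1426147_s_at, read 202, 237 and 248 as the lowest, median and highest at 1 week and 325, 356, 333 and 251 at 8 weeks. The ages did not overlap although replicate 2 labelled male at 8 weeks lay just above the highest array of 1 week, and the level went from 233 ± 16.7 to 316 ± 45.6 (0.39 ± 0.09, limma adjusted p = 0.00621). When the 4 arrays with opposed sex transcripts were dropped and only age was fitted, the call was lost (0.32 ± 0.15, limma adjusted p = 0.134, with 0.0000173 to 0.134 over its alternatives).

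Mlc1 encodes a membrane protein of astrocyte contacts around vessels, named for an inherited leukoencephalopathy with cysts. It read 223, 244 and 308 as the lowest, median and highest at 1 week and 273, 277, 392 and 346 at 8 weeks. The ages overlapped, and the rise from 255 ± 34.1 to 322 ± 57.6 just passed (0.30 ± 0.10, limma adjusted p = 0.0344). It did not pass with age alone in the model on all 10 arrays. The call was lost when 1 array was left out in 7 of 10 cases. Of the arrays of 1 week these were replicate 1 labelled female (0.27, limma adjusted p = 0.0647), replicate 3 labelled female (0.30, limma adjusted p = 0.0576), replicate 1 labelled male (0.27, limma adjusted p = 0.0678) and replicate 3 labelled male (0.27, limma adjusted p = 0.0714). Of those of 8 weeks they were replicate 1 labelled female (0.31, limma adjusted p = 0.0773), replicate 2 labelled female (0.30, limma adjusted p = 0.0871) and replicate 1 labelled male (0.26, limma adjusted p = 0.115).

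Slc4a4 encodes the electrogenic sodium bicarbonate cotransporter, which couples astrocyte pH to the activity around it, and its probe sets gave different answers. The brightest, 1452071_at, read 588, 658 and 731 as the lowest, median and highest at 1 week and 715, 700.3, 586 and 700.3 at 8 weeks. The ages overlapped throughout (0.02 ± 0.08, limma adjusted p = 0.819, interval -0.15 to 0.19). The probe set 1426432_a_at read 239, 294 and 432 as the lowest, median and highest at 1 week and 431, 412, 409.9 and 432 at 8 weeks. It was called higher (0.41 ± 0.14, limma adjusted p = 0.0362), with the arrays of 8 weeks near the top of a wide range at 1 week. That call was lost when 1 array was left out in 6 of 10 cases: at 1 week replicate 1 (0.37, limma adjusted p = 0.0735) and replicate 3 labelled male (0.41, limma adjusted p = 0.0607), and at 8 weeks replicate 1 (0.40, limma adjusted p = 0.0941) and replicate 2 labelled female (0.43, limma adjusted p = 0.0758) and replicate 1 (0.43, limma adjusted p = 0.0715) and replicate 2 labelled male (0.39, limma adjusted p = 0.0975). The dimmer 1421225_a_at went from 65.6 ± 24.1 to 108 ± 16.5 and kept its call in all 10 cases (0.59 ± 0.15, limma adjusted p = 0.0101). In arrays labelled female alone the call was lost (0.31 ± 0.22, limma adjusted p = 0.324). Its mean over all arrays was 78.8, where the dimmest probe set tested had 73.9. At its level of 1 week it would not have passed the filter, so its call is no support for a rise. The fourth, 1450169_at, was too dim for the test and read 4.20 to 30.3 at 1 week, a range that held every array of 8 weeks. The suffix a_at marks probe sets shared by several transcripts of a gene, and the source of the disagreement was not tested.

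Aqp4 encodes the water channel that lines astrocyte endfeet, and its arrays were far more spread at 1 week than at 8 weeks, with means that did not differ beyond that spread. The probe set 1425382_a_at read 514, 1060.4 and 1641 in replicates 1 to 3 labelled female at 1 week and 718, 904 and 1085 in those labelled male. At 8 weeks it read 979.9 and 885 in arrays labelled female and 876 and 1082 in those labelled male. The arrays of 8 weeks lay inside the range of 1 week, with 956 ± 96.3 against 987 ± 386 (0.04 ± 0.26, limma adjusted p = 0.920, interval -0.55 to 0.62). The SD of the log2 values at 1 week was 0.56, larger than for all but 1.41% of genes, and 0.14 at 8 weeks. The second probe set, 1434449_at, read 579, 910.3 and 1237 as the lowest, median and highest at 1 week and 905.5, 777, 689.8 and 814 at 8 weeks. It was not called either (-0.14 ± 0.21, limma adjusted p = 0.602), and its sign turned on the deposited scale (0.40) and with spike-in scaling (0.11).

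**Figure D2:**
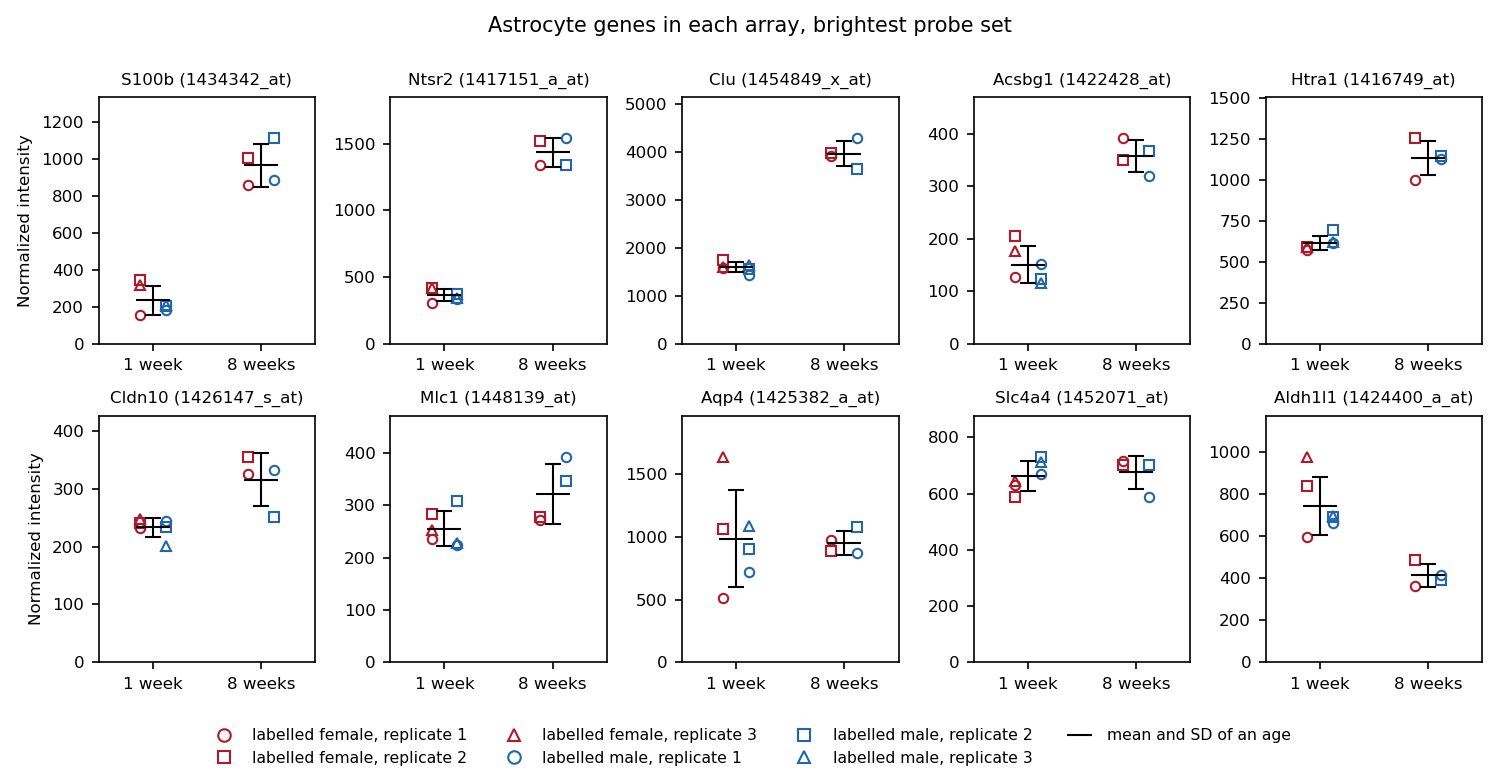
Normalized intensity of the brightest probe set of each gene in every array, at 1 week and 8 weeks, with colour for the sex label, shape for the replicate number and the mean and SD of each age in black; every vertical axis starts at 0. S100b, Ntsr2, Clu, Acsbg1 and Htra1 stand apart by age, Aldh1l1 is lower at 8 weeks, and Aqp4 spreads from 514 to 1641 at 1 week alone.

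Some arrays of 1 week were low or high in many of the 10 genes. Replicate 1 labelled female was below the mean of its age for 10 of the 10 genes and the lowest array for 5. Replicates 1 and 3 labelled male were each below it for 6. The highest array was replicate 2 labelled female for 4 genes, replicate 3 labelled female for 3 and replicate 2 labelled male for 3. Markers of other cells also differed between these arrays. Cerebellar neuron markers (8 of 8 on the array) summed to 2665 and 2195 in replicate 1 labelled female and male, and to between 4674 and 7151 in the other 4 arrays of 1 week. Oligodendrocyte markers (9 of 12 on the array) summed to 2445 and 3399 in those 2 arrays, to 11584 and 10844 in replicates 2 and 3 labelled female, and to 6135 and 5351 in replicates 2 and 3 labelled male. No cerebellar or oligodendrocyte marker was at 0 on all arrays. Aqp4 and the cerebellar sum were both lowest in replicate 1 of either label and both highest in replicate 3 labelled female. S100b, likewise, was lowest in the 2 arrays with the least oligodendrocyte signal (153 and 180.3) and highest in the 2 with the most (345 and 315).

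At 8 weeks the cerebellar sum ran from 4860.5 to 17823 and the oligodendrocyte sum from 14344 to 18728. Of the 8 oligodendrocyte markers tested, 6 rose with age, beside 21.9% of all genes. They thus moved with S100b between the ages too, and their part in its rise was not tested. Within 8 weeks replicate 1 labelled female was lowest in the oligodendrocyte sum (14344) and in S100b (856), while the highest sum was in replicate 1 labelled male (18728) and the highest S100b in replicate 2 labelled male (1111). Without replicate 1 of either label at 1 week and with age alone in the model, a setting chosen after the data were seen, S100b changed by 1.79 ± 0.17, and 6 of the genes were higher and 1 lower. In that setting Aqp4 was at -0.26 by its brighter probe set (limma adjusted p = 0.231), and 1434449_at was called lower (-0.40 ± 0.14, limma adjusted p = 0.0355). Pituitary markers, 4 on the array, summed to 187 to 2502 at 1 week and 965 to 13371 at 8 weeks. Of the 3 tested, 2 rose (Prl and Gh), beside 21.9% of all genes. The part of brain dissection in the values of either age was not tested. Endothelial markers, which share the endfoot's surroundings, summed to 1686 to 2061 at 1 week and 1707 to 1867 at 8 weeks. Of the 8 tested, 4 fell (Cldn5, Kdr, Cdh5 and Esam), beside 24.0% of all genes, and 1, the transporter gene Slco1a4, rose (1.42 ± 0.15), beside 21.9%. Microglial markers summed to 2296 to 2694 and 3134 to 4204, and markers of mural and meningeal cells to 2593 to 7162 and 1789 to 2272. Choroid plexus and ependymal markers are relevant to Clu and Cldn10 because such epithelia express claudins and clusterin. They summed to 5242 to 6527 at 1 week and 4207 to 9368 at 8 weeks. Most of that sum was Ttr, which read 4822 to 6055 at 1 week and 3820 to 8641 at 8 weeks. Of the 4 markers tested, 0 were called higher and 0 lower, beside 21.9% and 24.0% of all genes. The part of these epithelia was not tested.

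**Figure D3:**
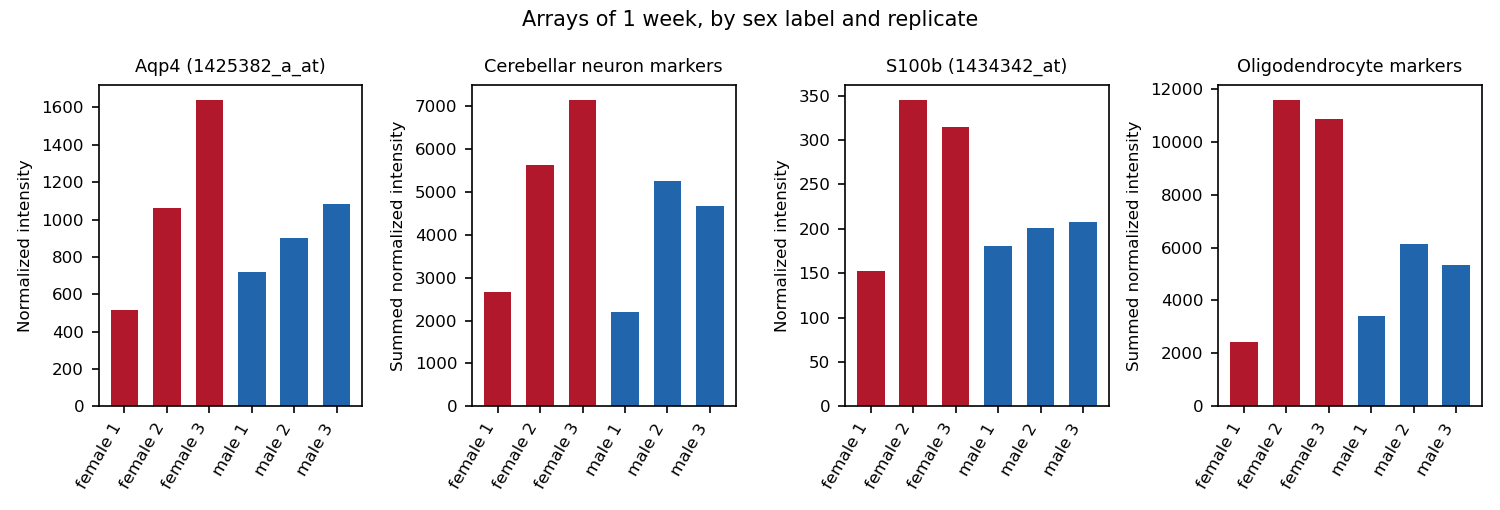
The 6 arrays of 1 week, red for labelled female and blue for labelled male, with the normalized intensity of Aqp4 and of S100b and the summed normalized intensity of cerebellar neuron markers and of oligodendrocyte markers. Replicate 1 of either label is lowest in all 4 panels, and replicates 2 and 3 labelled female are highest in the panels of S100b and oligodendrocyte markers.

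The rises and the fall were seen under either sex label for most probe sets. Within arrays labelled female 11 of the 18 probe sets rose with age and 1 fell, beside 14.4% and 16.2% of all probe sets, and within arrays labelled male 12 rose and 1 fell, beside 15.5% and 16.6%. At 8 weeks, where the labels matched the sex transcripts, limma called 0 of the 18 for sex and 0 of all 13576 probe sets, with 1 of the 18 and 345 of all under an unadjusted p of 0.05. That 1 was Mlc1, which read 273 and 277 in arrays labelled female and 392 and 346 in those labelled male (male minus female 0.39 ± 0.16, limma adjusted p = 1). The test for sex missed Xist, which at 8 weeks read 1676 and 1405 under female labels against 131 and 134 under male ones. The spread used in that test took in the arrays of 1 week, whose labels did not give the sex of each brain. Its 0 calls therefore do not show that sex differences were absent at 8 weeks. The change with age differed between the labels for 0 of the 18 in limma (0 of the 18 and 759 of all probe sets under an unadjusted p of 0.05), over labels that at 1 week did not match the sex transcripts. Of the genes whose brightest probe set was called for age under a single label, Mlc1 was 0.51 ± 0.14 in male and 0.09 ± 0.14 in female labels and Cldn10 0.33 ± 0.13 and 0.46 ± 0.13, and the difference was not called for either.

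The genes with the pattern most like each of these over the 10 arrays were found by the root mean square difference of centred log2 values. A smaller number is more alike. The measure holds the change with age and the spread, so likeness in either follows from the choice. Nearest to S100b were Car2, a carbonic anhydrase gene (0.18), and Ntsr2 (0.22), the only pair among the 10 genes in which one was among the other's nearest 2. Nearest to Ntsr2 were Fbxo2, a ubiquitin ligase subunit gene, and Kcnab2, a potassium channel subunit gene (both 0.12). Clu lay nearest to Fam102a (0.053) and Wasl (0.078), Acsbg1 to Abhd3 (0.13) and Qdpr (0.17), and Htra1 to Auh (0.099) and Hagh (0.10). Aldh1l1 lay nearest to Col5a1, a collagen gene (0.10), and Nkx2-2, a transcription factor gene of oligodendrocyte precursors (0.11), both of which also fell (-0.68 ± 0.13 and -0.73 ± 0.15). Aqp4 lay nearest to Lims2 (0.18) and Kitl, the gene of the Kit ligand (0.22), neither called for age. Lims2 spread from 115 to 323 at 1 week and from 225 to 249 at 8 weeks, a wide and then a narrow range like that of Aqp4. Mlc1 lay nearest to Pdcd7 (0.094) and Tmem199 (0.12), Cldn10 to Slc39a13 (0.079) and Cst3 (0.084), and Slc4a4 to Ints9 and Sash3 (both 0.062).

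Other astrocyte genes moved mostly the same way. Of 40 listed, 31 were tested, and 20 rose and 2 fell, where 21.9% of all genes rose and 24.0% fell, with a median change of 0.69 beside -0.020 for all genes. On the deposited scale 27 rose and 0 fell (median 1.21), and with spike-in scaling 23 and 1 (median 0.93). All 13576 probe sets had medians of 0.47 and 0.20 in these settings, with 8673 called higher on the deposited scale. The largest rises were of Gjb6, a gap junction gene (2.07 ± 0.12), Fxyd1, a regulator of the sodium pump (1.93 ± 0.24), Itih3 (1.90 ± 0.22) and Glul, the glutamine synthetase gene (1.55 ± 0.08). The glutamate transporter genes parted: Slc1a2 went from 89.0 ± 12.8 to 215 ± 58.2 (1.06 ± 0.15), while Slc1a3 was 781 ± 77.6 and 766 ± 164 and did not pass (limma adjusted p = 0.791). Slc1a3 passed on the deposited scale (0.51), near the median of 0.47 for all probe sets there. The members that fell were Sox9, a glial transcription factor gene (-0.65 ± 0.09), and Mmd2 (-0.47 ± 0.08), and neither was called on the deposited scale, where Mmd2 turned to 0.075. Gfap, the astrocyte filament gene, was 920.5 ± 279 and 922 ± 187 and did not pass (limma adjusted p = 0.906). It passed on the deposited scale (0.58), also near that median of 0.47.

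Of 20 listed genes of the complex that anchors Aqp4 at the endfoot and of partners of Mlc1, 15 were tested, 4 rose and 5 fell, with a median of 0.10. These counts lie near the 21.9% and 24.0% of all genes. On the deposited scale 9 rose and 0 fell (median 0.58), and with spike-in scaling 6 and 2 (median 0.29). All probe sets had medians of 0.47 and 0.20 in these settings. Kcnj10, the inward rectifier potassium channel that shares the endfoot with Aqp4, went from 262 ± 55.6 to 602 ± 96.7 (1.14 ± 0.15), and Gjb6 rose as given above. Utrn (0.85 ± 0.08) and Dtna (0.31 ± 0.10), also on this list, rose too. Dag1, the dystroglycan that ties the complex to the basement membrane, went from 852 ± 48.6 to 548 ± 92.8 (-0.63 ± 0.09). Agrn, a proteoglycan that dystroglycan binds, fell by 0.84 on the log2 scale, Lamc1, a laminin chain, by 0.45 and Cav1, a caveolar protein also abundant in endothelium, by 0.44. On the deposited scale none of these 4 was called, and Lamc1 and Cav1 turned just above 0 (0.037 and 0.053). Sgcb, on this list as well, fell (-0.29 ± 0.07) and turned to 0.22 on that scale without a call. Hepacam, the partner of Mlc1, was not analysed here.

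Of 15 listed genes of secreted synapse factors and of the receptors by which astrocytes engulf synapses, 9 were tested, 3 rose and 2 fell, with a median of 0.14. These counts too lie near the 21.9% and 24.0% of all genes. On the deposited scale 7 rose and 0 fell (median 0.56), and with spike-in scaling 4 and 0 (median 0.30). The medians of all probe sets were 0.47 and 0.20. Mertk, a phagocytic receptor, went from 94.2 ± 14.8 to 258 ± 15.9 (1.26 ± 0.09), Sparcl1, the gene of hevin, which promotes synapse formation, changed by 0.63 ± 0.11, and the receptor gene Axl by 0.32 ± 0.08. The growth factor genes Tgfb2 (-0.58 ± 0.13) and Tgfb1 (-0.46 ± 0.10) fell, and lost their calls on the deposited scale and with spike-in scaling.

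Among factors of astrocyte formation and radial glial genes the balance depended on the scaling. Of 24 listed, 22 were tested, 1 rose and 10 fell after quantile normalization, beside 21.9% and 24.0% of all genes, with a median of -0.28. On the deposited scale 8 rose and 2 fell (median 0.24), and with spike-in scaling 3 and 5 (median -0.039). Both medians lay below those of all probe sets in the same settings, 0.47 and 0.20. Fabp7, a lipid carrier typical of radial glia, fell by 2.91 and Tnc, a matrix protein of progenitor zones, by 1.95 on the log2 scale, and Vim, the filament gene of immature astrocytes (-0.78 ± 0.25), and Hes5, a Notch target (-0.73 ± 0.20), fell less and were not called on the deposited scale. The member that rose was Fgfr3, a growth factor receptor gene that mature astrocytes keep (0.71 ± 0.12). Sox9, which this list also holds, is given above.

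Of the paralogs of the 10 genes, listed together with Sort1, a neurotensin receptor of another family, 18 were tested, 6 rose and 5 fell, beside 21.9% and 24.0% of all genes, with a median of 0.028. On the deposited scale 10 rose and 1 fell (median 0.53), and with spike-in scaling 8 and 2 (median 0.26). These medians lie near those of all probe sets, 0.47 and 0.20. Ntsr1, the high-affinity neurotensin receptor of neurons, went from 180.4 ± 29.7 to 43.3 ± 9.57 (-1.60 ± 0.12) while Ntsr2 rose, and Sort1, which is a sorting receptor and no paralog of Ntsr2, changed by 0.84 ± 0.11. The claudin of myelin, Cldn11, changed by 1.44 ± 0.31 and the endothelial claudin Cldn5 by -0.60 ± 0.08, which lost its call on the deposited scale, beside 0.39 for Cldn10. Acsl6, another acyl-CoA synthetase gene, changed by 0.99 ± 0.11 and Slc4a2, an anion exchanger gene, by 0.70 ± 0.11. S100a10, of the family of S100b, fell (-0.74 ± 0.20) and was not called on the deposited scale.

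**Figure D4:**
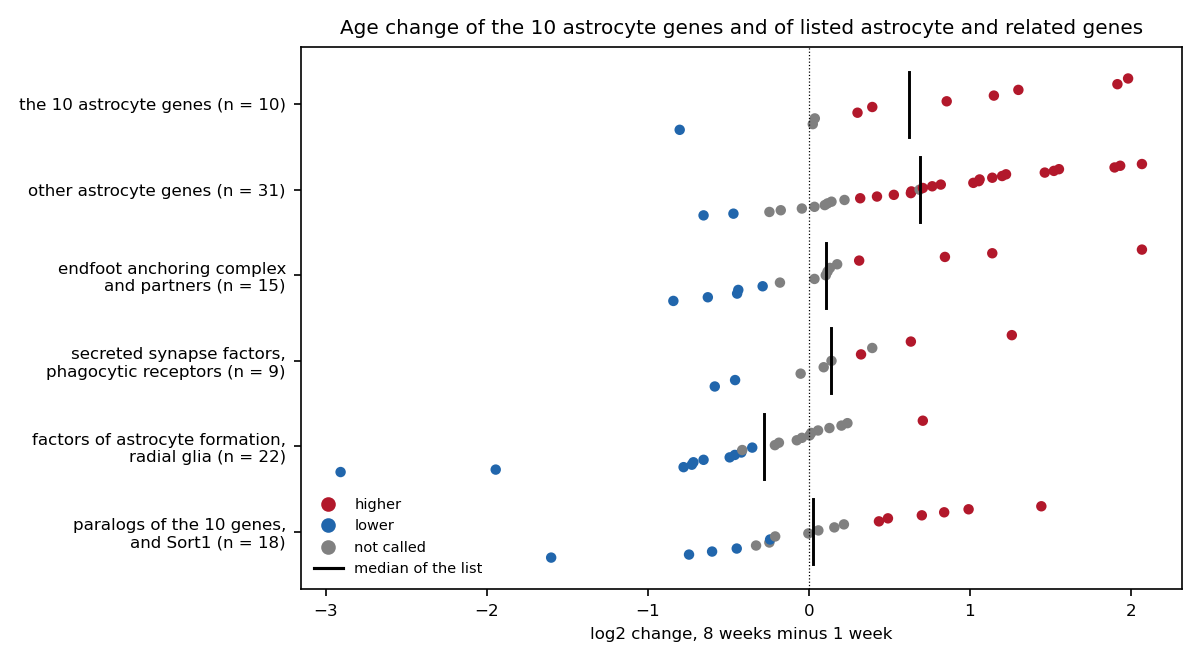
Log2 change at 8 weeks minus 1 week of each tested gene, for the 10 astrocyte genes and the 5 lists of related genes, with red for genes called higher, blue for lower and grey for not called, and a black bar at each median. The medians of the 10 genes (0.62) and of other astrocyte genes (0.69) lie to the right, and that of formation and radial glial genes (-0.28) to the left, a median that turned to 0.24 on the deposited scale. On that scale all probe sets had a median of 0.47.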

How the data were processed

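The authors deposited 1 intensity per probe set and array, on a linear scale; the summarisation software and settings are not given in the sources used here. Of 22690 probe sets, 64 array controls were left out. As trimmed means (2% off each tail) differed by more than 5%, with a ratio of 2.30, arrays were quantile-normalized; 24, the 20th percentile of deposited values, was added before log2, and the dimmest 40% of probe sets by mean log2 value were dropped, leaving 13576. Symbols came from GEO's platform annotation: 20380 probe sets had 1 symbol, 691 several and 1555 none. A gene was taken by its brightest probe set with 1 symbol.

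Tests used limma 3.58.1 in R 4.3.3, with 1 coefficient per group of age and sex label, two-sided tests and Benjamini-Hochberg adjustment over all tested probe sets; the pipeline was tested on simulated data. The number of arrays limits the precision. The genes, lists and alternatives were chosen with earlier results of these data known. Named were all 10 genes and the 2 genes most like each. From each list up to 4 called genes in its main direction, up to 2 in the other and a fixed panel were named. For the endfoot list every called gene was named.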

Additional observations from a re-analysis of the deposited data

Results flagged for a closer look

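Of 40 sets of arrays, each of the 20 probe sets at each age, 3 held an array whose distance to its nearest neighbour was a large part of the whole range, where chance gives about 1 in 20. The Aldh1l1 probe set too dim to test, 1424401_at, read 10.7 in replicate 1 labelled male at 1 week, a gap of 0.632 of the range. The Cldn10 probe set read 202 in replicate 3 labelled male at 1 week, below the other 5 arrays (0.682 of the range). The brightest Slc4a4 probe set read 586 in replicate 1 labelled male at 8 weeks, below the other 3 (0.892 of the range).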

How the results depend on the processing

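The calls of S100b, Ntsr2 and Acsbg1 were kept under all alternatives tried, with ranges of 1.70 to 2.50, 1.73 to 2.45 and 0.88 to 1.64. Without normalization between arrays 8673 probe sets were called higher and 629 lower, 0 of the 10 genes and 0 of their probe sets were lower, and of the other listed genes 53 were higher and 3 lower, beside 30 and 23. With spike-in scaling 1207 of all probe sets and 9 listed genes were lower. With age alone and without the 4 arrays whose sex transcripts opposed their label, 1973 probe sets and 12 listed genes were lower and 5 of the 10 genes were higher. In arrays labelled female alone 1957 probe sets were higher. With a 2-fold minimum 450 probe sets were higher and 393 lower, as were 4 and 0 of the 10 genes, 7 and 0 of their probe sets and 14 and 3 of the listed genes. Without the 2 arrays of 1 week low in cerebellar markers, 2 probe sets of the 10 genes were lower. Some of these settings had fewer arrays or a larger minimum and others a different scale, and the cause of the differences was not tested.

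Aqp4 turned to -0.047 with array weights, -0.19 without the 4 arrays, -0.26 without the 2 arrays and -0.052 in arrays labelled female. With each array left out it ran from -0.18 to 0.22, and Slc4a4 from -0.037 to 0.086. Slc4a4 was -0.13 in arrays labelled male. The Aqp4 probe set 1434449_at turned to 0.40 without normalization and 0.11 with spike-in scaling. With each array left out, 2480 to 2936 probe sets were higher and 2729 to 3126 lower, 6 to 7 of the 10 genes were higher and 1 lower, 12 to 14 of their probe sets were higher, and 29 to 32 listed genes were higher and 20 to 24 lower. Same-numbered arrays of different groups had deviations correlated from -0.025 to 0.19 over probe sets, over 0.1 in 5 of 13 pairs, so the numbers were not taken to pair the arrays. Each array of 1 week did correlate best, across labels of that age, with its own number (0.19, 0.098 and 0.099), a hint from the data and not from the design. With the replicate number as a block, 2847 probe sets were higher and 3054 lower, 6 of the 10 genes were higher and 1 lower, and Mlc1 lost its call (0.27, limma adjusted p = 0.0859). Without a filter Mlc1 also lost it (limma adjusted p = 0.0572). Dim probe sets limit Aldh1l1 and Slc4a4, which each had 1 too dim to test.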

Other observations

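Markers of Bergmann glia, the astrocytes of the cerebellar cortex, were measured for 4 of 5 listed genes and went both ways. Hopx, a homeodomain cofactor gene, went from a normalized intensity of 1216 at 1 week to 2461 at 8 weeks (log2 change 1.01, limma adjusted p = 0.000559), and Timp4, a protease inhibitor gene, from 231 to 401 (0.73, limma adjusted p = 0.00274). Ednrb, an endothelin receptor gene, went from 392 to 219.5 (-0.77, limma adjusted p = 0.000887), and Gdf10 was 273 and 348 and did not pass (limma adjusted p = 0.672).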
